A study of Mus musculus with 2 samples.

Results

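Short exons of 28 to 51 nt are the internal exons just longer than the microexons of 3 to 27 nt. The members were every distinct exon of that length that the Ensembl 65 annotation on mm9 places in 1 gene, whose 2 ends both carry flagged splice junctions and which had at least 20 informative reads in each of 2 junction-read columns, R1 and R2. The annotation holds 17628 such exons, 6192 of them have flagged junctions at both ends, and 4542 in 2974 genes were measured, out of 111094 measured internal exons of any length. The material was polyadenylated RNA over 200 nt from the cortex of C57BL/6J mice of 8 weeks, untreated as far as the labels say, in 2 libraries that are biological replicates 1 and 2 of 1 group. Per the labels, each library came from pooled male and female littermates, the tissue was called cortical plate, and reads were paired, strand-specific and 101 nt long. The labels give both libraries the same donor identifier, so their spread may be partly technical, and no second condition exists to compare with.

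An internal exon is joined to its neighbours by the spliceosome, which recognises the splice sites at both of its ends at once. A short exon leaves little room for that recognition and for the enhancer sequences that usually help it, and many short exons depend on neighbouring intron sequences and on RNA-binding proteins such as the Rbfox, Celf, Mbnl, Nova and Ptbp families. Brain is known for many short cassette exons, which are included in some transcripts of a gene and skipped in others. An exon whose length is a multiple of 3 adds or removes whole codons and leaves the downstream reading frame as it was.

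The sequences shown here are the short exons of intermediate inclusion with most reads, or textbook cassette exons, that lie wholly within coding sequence. They come from GENCODE M21 transcripts on mm10 (GRCm38). Each line runs 5′ to 3′ on the transcribed strand, with the short exon in capitals and the last 20 and first 20 coding bases of the neighbouring exons in lower case. The first set holds 3 members of the N-Myc downstream-regulated gene family, exons of Ndrg4 (chr8:95712325-95712363, + strand), Ndrg3 (chr2:156929932-156929970, - strand) and Ndrg2 (chr14:51911086-51911127, - strand).
Ndrg4: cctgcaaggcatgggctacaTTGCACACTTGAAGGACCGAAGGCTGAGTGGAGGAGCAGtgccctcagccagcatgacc
Ndrg3: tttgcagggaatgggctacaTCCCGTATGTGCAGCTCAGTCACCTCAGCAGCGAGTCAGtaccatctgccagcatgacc
Ndrg2: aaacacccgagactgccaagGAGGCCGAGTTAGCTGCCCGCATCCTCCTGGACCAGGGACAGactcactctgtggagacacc
The neighbouring exons of the Ndrg3 and Ndrg4 exons have the same base at 16 of 20 upstream and 17 of 20 downstream positions, while the 39-nt exons themselves do so at 18 of 39. The Ndrg2 exon of 42 nt has other neighbours, with 5 and 6 of 20 flanking bases the same as for Ndrg3.

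The second set holds the other wholly coding exons among the 15 intermediate members with most reads. They belong to Ppp3ca (chr3:136932011-136932040, + strand), Clta (chr4:44031400-44031435, + strand), Dlgap1 (chr17:70718196-70718225, + strand), Mff (chr1:82745524-82745556, + strand), Aplp2 (chr9:31156190-31156225, - strand) and Luc7l2 (chr6:38598785-38598814, + strand).
Ppp3ca: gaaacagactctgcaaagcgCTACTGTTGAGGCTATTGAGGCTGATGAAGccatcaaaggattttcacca
Clta: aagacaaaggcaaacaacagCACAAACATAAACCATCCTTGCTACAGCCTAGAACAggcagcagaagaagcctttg
Dlgap1: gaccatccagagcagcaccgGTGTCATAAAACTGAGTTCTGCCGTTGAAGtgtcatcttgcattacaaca
Mff: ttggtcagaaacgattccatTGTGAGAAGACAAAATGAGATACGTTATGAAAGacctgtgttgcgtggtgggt
Aplp2: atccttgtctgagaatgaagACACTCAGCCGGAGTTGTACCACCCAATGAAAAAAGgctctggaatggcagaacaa
Luc7l2: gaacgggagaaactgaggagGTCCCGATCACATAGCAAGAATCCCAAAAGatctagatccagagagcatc
All 6 exons are multiples of 3 in length. The Luc7l2 exon is 30 nt long, and Luc7l2 itself encodes a protein that associates with the U1 snRNP.

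The third set holds textbook cassette exons of kinases and adhesion molecules. They are exons of Camk2g (chr14:20747819-20747851, - strand), Camk2d (chr3:126808208-126808249, + strand), Nrcam of 30 nt (chr12:44566840-44566869, + strand), Nrcam of 36 nt (chr12:44578145-44578180, + strand), Nfasc of 51 nt (chr1:132627872-132627922, - strand) and Agrn (chr4:156167777-156167809, - strand). A 33-nt exon of Camk2b (chr11:5989936-5989968, - strand), which was nearly always skipped, is added because its length equals that of the Camk2g exon.
Camk2g: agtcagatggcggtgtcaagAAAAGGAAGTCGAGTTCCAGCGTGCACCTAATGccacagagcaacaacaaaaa
Camk2b: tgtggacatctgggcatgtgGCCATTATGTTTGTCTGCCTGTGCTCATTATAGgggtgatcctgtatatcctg
Camk2d: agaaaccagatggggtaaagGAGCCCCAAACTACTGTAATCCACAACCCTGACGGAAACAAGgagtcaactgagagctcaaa
Nrcam 30 nt: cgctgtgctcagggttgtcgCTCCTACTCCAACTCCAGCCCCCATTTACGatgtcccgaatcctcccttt
Nrcam 36 nt: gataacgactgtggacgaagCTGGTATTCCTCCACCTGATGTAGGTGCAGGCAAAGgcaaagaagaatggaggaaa
Nfasc 51 nt: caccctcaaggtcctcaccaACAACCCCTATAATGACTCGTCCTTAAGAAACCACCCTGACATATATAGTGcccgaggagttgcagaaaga
Agrn: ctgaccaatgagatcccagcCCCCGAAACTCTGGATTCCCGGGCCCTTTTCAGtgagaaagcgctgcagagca
The Camk2g and Camk2b exons have the same base at 9 of 33 positions and at 5 and 2 of the 20 flanking positions, so they share a length but little sequence.

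Reads of inclusion were taken as the mean number of reads at the 2 ends of an exon, and skipping reads as those that join the outer splice sites directly. The informative reads are the sum of both, and inclusion is the percent of them that include the exon. Junction reads totalled 39026825 in R1 and 38323842 in R2, and the median member had 138.0 informative reads in R1 and 135.0 in R2. The tissue label was checked against marker genes. Markers of cortical neurons were present, with Slc17a7 at 572.0 and 478.9 TPM and Snap25 at 1594.5 and 1464.6 TPM in replicates 1 and 2, while markers of liver, muscle, pancreas and skin stayed at or below 0.670 TPM. All 7 striatal markers were higher in replicate 2, with a summed level of 125.6 TPM in replicate 1 and 377.4 TPM in replicate 2, and the 4 hippocampal markers summed to 18.3 and 6.55 TPM. In bulk tissue, fewer cells of a type and less RNA per cell cannot be told apart, and neither can partial inclusion in every cell and full inclusion in a part of the cells.

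Most short exons were not seen to be skipped. No skipping read at all was seen in either library for 3214 of the 4542 members (70.8%), and the median inclusion was 100% in both R1 and R2. Mean inclusion lay over 90% for 4055 members, between 10% and 90% for 368 (8.10%, 95% Wilson interval 7.34 to 8.93), called intermediate here, and under 10% for 119 (2.62%). The share of intermediate members was 8.21% in R1 alone and 8.30% in R2 alone. The intermediate members sat in 341 genes and were spread over the whole range, from 30 exons at 30% to 40% inclusion to 94 exons at 80% to 90%.

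Short exons stood between microexons and longer exons in how often they were intermediate. The share was 27% (23.9 to 30.3) for 719 measured microexons of 3 to 27 nt and 2.55% (2.46 to 2.65) for 105833 exons over 51 nt. Within the genes that hold a measured short exon, 2.43% (2.29 to 2.59) of the 39199 longer exons were intermediate, so the lower share of longer exons was also seen in the same genes. In genes with an intermediate short exon, 4.56% (4.03 to 5.16) of 5196 longer exons were intermediate. These shares are descriptions with intervals over exons, which are not replicates of a condition, and no test between the classes was made. Within the members the share fell from 13.0% of 615 exons of 28 to 33 nt, through 10.9% of 915 and 7.35% of 1293, to 5.41% of 1719 exons of 46 to 51 nt. Just outside the limits, exons of 27 nt had 26.1% intermediate (36 of 138) and exons of 52 nt had 4.12% (12 of 291). Just inside them, exons of 28 nt had 6.78% (4 of 59) and exons of 51 nt had 7.86% (32 of 407).

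The lengths at those limits also differ in frame. Lengths of 27 and 51 nt are multiples of 3, and lengths of 28 and 52 nt are not. Among all members, 12.1% (10.8 to 13.6) of the 2057 exons with a length that is a multiple of 3 were intermediate, against 4.79% (4.02 to 5.70) of the 2485 others. Exons of 33 nt had the highest share, 20.5% (39 of 190), followed by 36 nt at 16.1% and 39 nt at 15.6%. Seen the other way, 67.7% of intermediate members (249 of 368, interval 62.7 to 72.2) were multiples of 3, against 42.8% (41.2 to 44.3) of members over 90%. The share of multiples of 3 among intermediate exons was 87.1% for microexons and 50.4% for exons over 51 nt. Among exons over 90% inclusion it was 58.9% for microexons and 38.6% for exons over 51 nt.

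**Figure D1:**
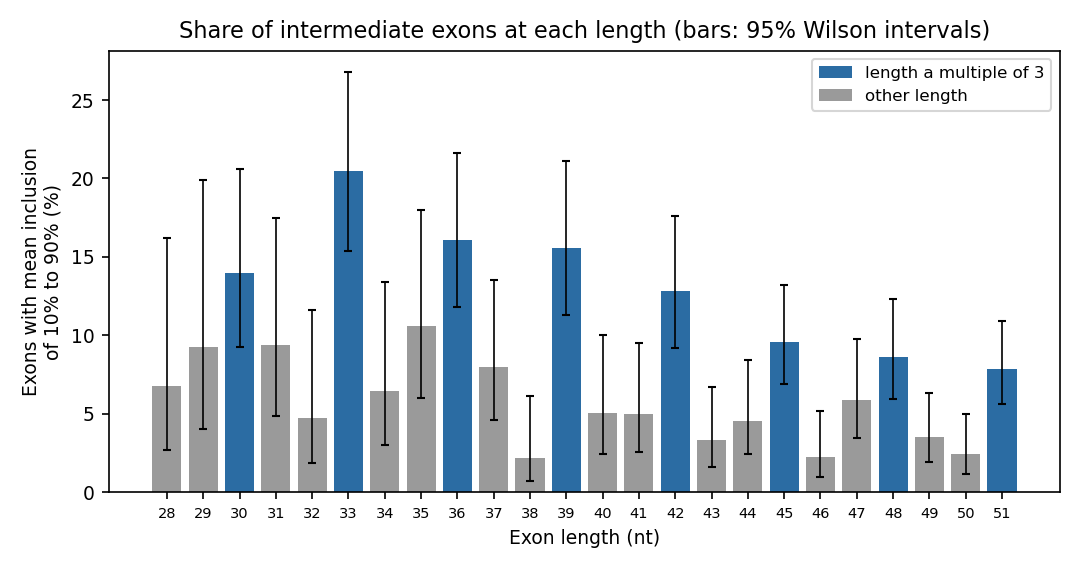
Share of measured exons with mean inclusion of 10% to 90% (y axis, percent) at each exon length from 28 to 51 nt (x axis); blue bars are lengths that are multiples of 3, grey bars other lengths, and the black lines are 95% Wilson intervals over exons. The blue bars run from 7.86% at 51 nt to 20.5% at 33 nt, and each is higher than the grey bars beside it.

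Of the 4542 members, 4396 (96.8%) matched an exon of GENCODE M21 transcripts with the same structure, which gave their place in the transcript. Wholly coding exons made up 94.2% of matched members over 90% inclusion, 72.9% of intermediate members and 52.3% of members under 10%. Exons wholly in untranslated regions made up 1.47%, 8.85% and 20.6% of the same classes, and exons of no protein-coding transcript 2.13%, 10.6% and 20.6%. In wholly coding exons the frame separated the members further, since 10.5% (9.19 to 12) of 1837 multiples of 3 were intermediate and 2.47% (1.90 to 3.21) of the 2187 others. In exons with untranslated or non-coding sequence the shares were 26.4% (34 of 129) and 23.9% (58 of 243), with overlapping intervals. Among wholly coding exons under 10% inclusion, 48 of 56 (85.7%) were multiples of 3.

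**Figure D2:**
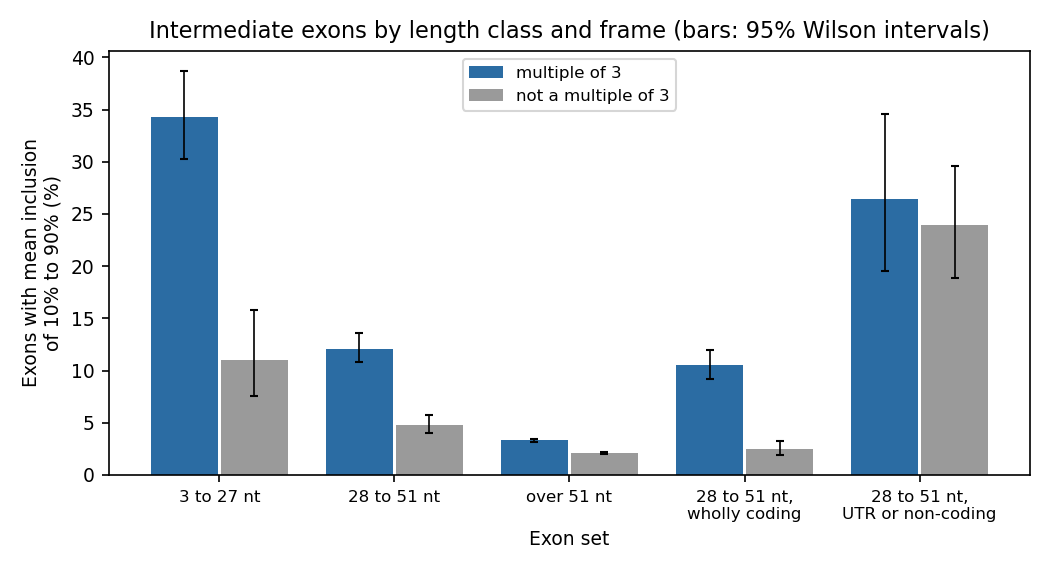
Share of exons with mean inclusion of 10% to 90% (y axis, percent) in each exon set (x axis), for lengths that are multiples of 3 (blue) and other lengths (grey), with 95% Wilson intervals over exons. The gap between blue and grey is 10.5% against 2.47% in wholly coding exons of 28 to 51 nt, and 26.4% against 23.9% in those with untranslated or non-coding sequence.

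Other features that the rule did not use were compared as well. Median GC content was 48.5% in intermediate members and 48.4% in members over 90%, with quartiles of 43.3% to 55.6% and 41.7% to 54.5%. The median intron upstream was 1768.5 nt for intermediate members and 1244.0 nt for those over 90%, and the median intron downstream was 1936.5 and 1039.0 nt. Another annotated exon overlapped 30.4% of intermediate members and 26.8% of those over 90%.

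Among the signalling genes, the exon with most reads was that of Ppp3ca, the catalytic A subunit alpha of the phosphatase calcineurin, which is abundant in forebrain neurons. Its 30-nt exon had 3883 and 5137 reads at its upstream and downstream ends in R1, with 805 skipping reads, and 3844, 5037 and 481 in R2. Inclusion was 84.9% (interval 83.9 to 85.8) in R1 and 90.2% in R2, so the libraries did not overlap within counting error. A 30-nt exon of the paralogue Ppp3cb was included at 99.6% and 99.7%, with 9 and 6 skipping reads. Ppp3cb was chosen for this comparison after its values were seen.

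The 3 Ndrg exons were all measured deeply and had very different inclusion. The Ndrg4 exon, in a family member enriched in brain and heart, had 16306 and 23641 reads at its ends in R1 and 18384 and 25011 in R2, against 2906 and 2901 skipping reads. Its inclusion was 87.3% and 88.2%, a mean of 87.8% ± 0.642 (SD, n = 2). The Ndrg3 exon, which lies between neighbours of nearly the same sequence, was mostly skipped, at 12.1% and 12.7% with 3345 and 3284 skipping reads. The Ndrg2 exon, in a gene expressed mainly by astrocytes in brain, was included at 24.9% and 27.3%. Its downstream end carried 2078 and 2512 reads and its upstream end 509 and 596, with no other annotated exon overlapping it. With the lower end alone its inclusion was 12.1%, and with the higher end alone 36.3%. Other short exons of 36, 45 and 48 nt in the Ndrg genes were included at 97.1% or more.

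Clta encodes clathrin light chain A, a part of the coat of endocytic vesicles, and its short exon belongs to the brain forms of the protein. Inclusion was 70.1% in R1 and 70.6% in R2, with 976 and 865 skipping reads, with intervals that overlap. The other short exon of Clta, of 38 nt, had no skipping read in either library. Dnm1 encodes dynamin 1, the GTPase that cuts endocytic vesicles from the membrane. Its 37-nt exon (mm9 chr2:32165971-32166007, - strand) was included at 45.2% and 44.5%. The Dnm1 exon is not a multiple of 3. Coding sequence covers at most a part of it in any matched protein-coding transcript, so its sequence is not shown.

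The 30-nt exon of Dlgap1, which encodes a scaffold of the postsynaptic density, was included at 79.7% and 79.1%. The 33-nt exon of Mff, whose product recruits the fission GTPase Drp1 to mitochondria, was included at 31.7% and 33.4%. The 36-nt exon of Aplp2, a relative of the amyloid precursor protein, was included at 89.4% and 87.3%, close to the upper limit of the class. The Luc7l2 exon was included at 76.7% and 75.5%. Klc1 encodes a light chain of the motor kinesin 1, and its 51-nt exon (mm9 chr12:113031860-113031910, + strand) was included at 90% and 86.4% by the rule. The Klc1 value holds only for skipping between the outer sites of the exon's own flagged junctions. It was 36.2% when every junction spanning the exon was counted as skipping. A 49-nt exon in the untranslated region of Gnb1, which encodes a G protein beta subunit, was included at 74.0% and 73.6%. A 45-nt exon of Mgrn1, a ubiquitin ligase gene, was included at 75.4% and 73.2%. In each of these 7 genes the difference between libraries was 3.60 percentage points or less.

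**Figure D3:**
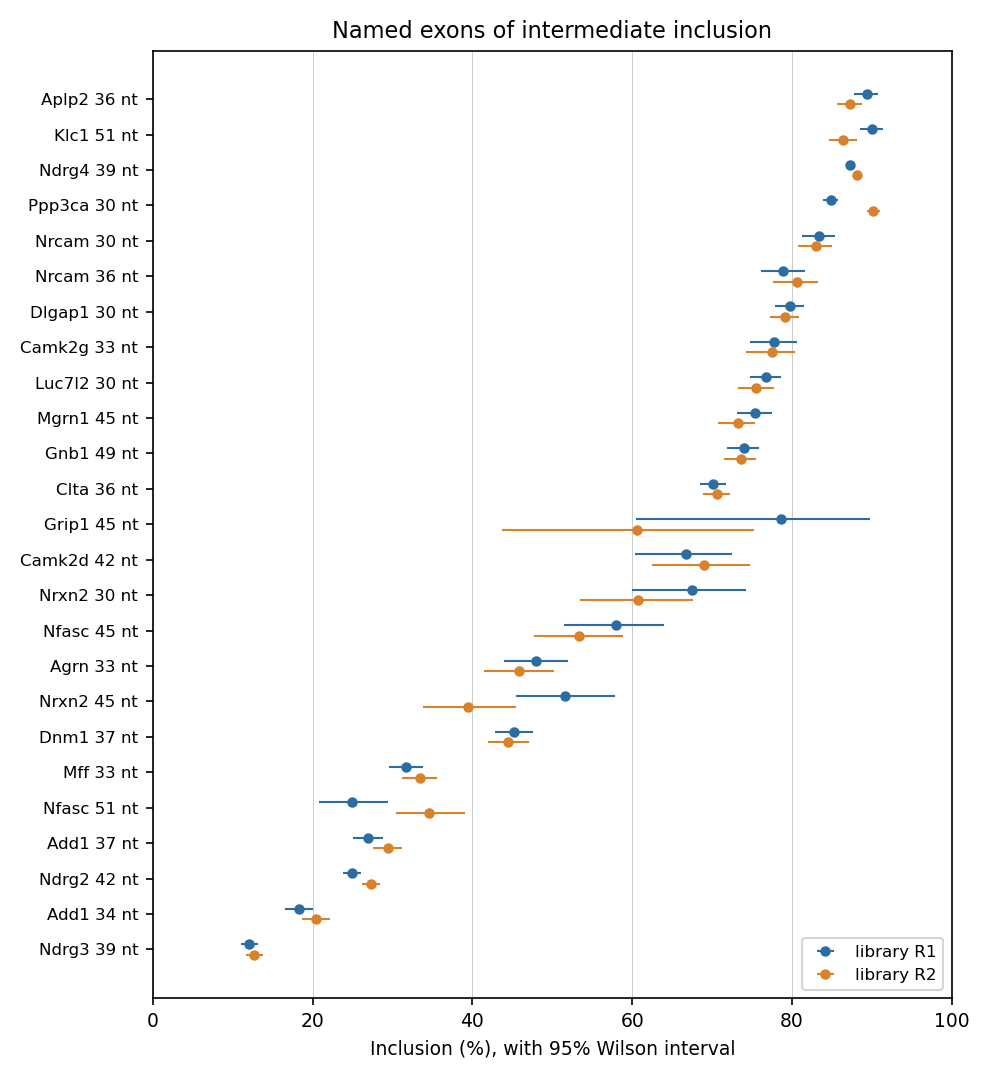
Inclusion (x axis, percent) in library R1 (blue) and library R2 (orange), with 95% Wilson intervals from informative reads, of the 15 intermediate exons with most reads and intermediate textbook cassette exons reported here (y axis, gene and exon length). Intervals are narrow for Ndrg4 and wide for Grip1, and inclusion runs from 12.1% in Ndrg3 to 90.2% in Ppp3ca.

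The adducin gene Add1, whose product caps actin filaments in the membrane skeleton, holds a pair of overlapping short exons of 37 and 34 nt. Both end at the same downstream site (mm9 chr5:34971821, + strand) and start 3 nt apart, so the reads at the downstream end (664 in R1 and 791 in R2) are counted for both. The upstream ends are their own. They carried 539 and 600 reads for the 37-nt form, against 66 and 67 for the 34-nt form, with the same 1632 and 1673 skipping reads. Inclusion by the rule was 26.9% and 29.4% for the 37-nt form and 18.3% and 20.4% for the 34-nt form, the second with a mean of 3.87% on its own upstream end and 30.5% on the shared one. A 50-nt exon of Add1 in untranslated sequence was included at 7.11% and 8.24%, and its mean of 7.67% was 2.31% over every spanning junction.

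The 4 genes of calcium/calmodulin-dependent kinase II, the kinase of synaptic plasticity, each hold several short exons, and most of them were nearly always included. Their 43-nt exons, for example, were included at 99.9% or more in Camk2a, Camk2b, Camk2g and Camk2d. The alternative exons lie mostly in the linker that joins the catalytic and association domains. In Camk2a the 33-nt exon had 16005 skipping reads in R1 and 14209 in R2 and was included at 2.76% and 3.13%. The 33-nt exon of Camk2g was included at 77.8% and 77.5%. Its upstream end carried 853 and 820 reads and its downstream end 351 and 298. The mean of this Camk2g exon, 77.7%, was 65.9% on the lower end and 83.4% on the higher, and it was also lower with every spanning junction counted. The 33-nt exon of Camk2d was included at 5.66% and 8.77% on 55.0 informative reads over both libraries. The mean of the Camk2d 33-nt exon, 7.22%, was 1.12% with every spanning junction counted, 3.57% on the lower end and 10.5% on the higher. The 42-nt exon of Camk2d was included at 66.7% and 69.0%, and the 45-nt exon of Camk2b at 92.1% and 91.7%. The Camk2b exon of 33 nt, unlike Camk2g in sequence, had 12 and 11 reads at its upstream end, 1 and 1 downstream, and was included at 0.307% and 0.296%, or 0.0484% on the lower end and 0.554% on the higher.

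Neurexins are presynaptic adhesion molecules with many alternative splice sites. The 30-nt exon of Nrxn2 was included at 67.5% and 60.7% and that of Nrxn3 at 96.9% and 98.9%. An exon of 45 nt in Nrxn2 had very unequal ends, 243 and 4 reads in R1, and another annotated exon overlaps it. Its inclusion of 51.6% and 39.5% became 5.13% on the lower end.

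Nrcam and Nfasc encode neuronal adhesion molecules that gather at nodes of Ranvier and axon initial segments. The Nrcam exon of 30 nt was included at 83.4% and 83.0% and that of 36 nt at 78.9% and 80.6%, both with intervals that overlap between libraries. All skipping reads of the 36-nt exon came from unflagged junctions, since its inclusion was 100% when flagged junctions alone counted. The Nfasc exon of 51 nt was included at 24.9% (20.8 to 29.5) in R1 and 34.6% (30.5 to 39.1) in R2. These intervals do not overlap, but the difference of 9.69 points did not pass the adjusted threshold between libraries. The Nfasc exon of 45 nt was included at 58.0% and 53.3%. Ntm, a cell surface protein of the IgLON family, had a 33-nt exon at 21.8% and 19.8% and a 36-nt exon at 45.1% and 48.5%, the latter 10.4% over every spanning junction. The 33-nt exon of Agrn, the proteoglycan agrin that organises receptors at synapses, was included at 48.0% and 45.8%. The mean of the Agrn exon, 46.9%, was 31.4% over every spanning junction.

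The 5 members under 10% with most informative reads were the 33-nt exons of Camk2a and Camk2b and exons of Serpini1, Eif5a and Snap47. Serpini1 encodes neuroserpin, and its 42-nt exon in untranslated sequence was included at 0.0808% and 0.0457%, with 2474 and 2189 skipping reads and a mean of 0.0404% on the lower end. The 30-nt exon of Eif5a, a translation factor gene, was included at 0.320% and 0.333%, or 0.129% on the lower end and 0.523% on the higher. Inclusion was 1.01% and 1.23% for the 50-nt exon of Snap47. Of these 5, the 2 kinase exons are wholly coding and the other 3 are untranslated.

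Where the length was not a multiple of 3, the intermediate exons with most reads were both Add1 forms, the exons of Gnb1 and Dnm1 and a 41-nt exon of Gas5. Gas5 is a non-coding host gene of small nucleolar RNAs. Its exon was included at 18.8% and 24.1%, with 832 and 828 skipping reads. None of these 5 exons is wholly coding.

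The host genes were also grouped by function, in lists that overlap and that were drawn up with earlier results of these data known, so the counts describe the lists and no test was made. Beside each count stands the share of 8.10% among all members. Cell adhesion genes had 15 intermediate exons of 39 (38.5%), the textbook cassette genes 16 of 50 (32.0%) and microtubule and motor genes 7 of 22 (31.8%). The textbook genes were listed because they are known to be alternative. Genes of the spectrin, ankyrin and actin skeleton had 10 of 48 (20.8%), postsynaptic genes 12 of 61 (19.7%), myelin and glial genes 4 of 22 (18.2%) and ion channel and transporter genes 9 of 53 (17.0%). Synaptic vesicle and active zone genes had 5 of 35 (14.3%), RNA-binding and chromatin genes 8 of 64 (12.5%), and both the trafficking genes (8 of 65) and the kinase, phosphatase and GTPase genes (13 of 106) 12.3%. Over all listed genes 87 of 492 members were intermediate (17.7%), against 281 of 4050 (6.94%) in genes on no list. Median inclusion was lowest in the adhesion genes, at 95.3%, and was 100% in 8 of the lists.

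In the adhesion list, 14 of 15 intermediate exons were multiples of 3. Beside the exons already given, they included a 33-nt exon of Cadm1, a synaptic immunoglobulin adhesion molecule, at 51.1% and 55.2%, and a 45-nt exon of Adgrl2, a latrophilin receptor, at 50.8% and 50.7%. In receptor phosphatase genes, a 33-nt exon of Ptprf was included at 66.5% and 69.1%, a 42-nt exon of Ptprd at 14.9% and 16.6% and a 36-nt exon of Ptprk at 89.6% and 82.0%. A 51-nt exon of Nlgn2, the neuroligin of inhibitory synapses, was included at 88.6% and 89.4%. The genes in this and the following paragraphs, up to that on RNA-binding proteins that act in splicing, were named after their values were seen. They were picked from their lists, and not every intermediate exon of each list is given.

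In the postsynaptic list, scaffold genes of the Dlg family had exons at intermediate levels that differed by under 2 points between libraries, 77.8% and 76.6% for the 36-nt exon of Dlg1 and 54.0% and 55.4% for the 42-nt exon of Dlg3. The 36-nt exon of Cask, which encodes a scaffold kinase, was included at 81.0% and 82.9%. The 42-nt exon of Gphn, encoding gephyrin of inhibitory synapses, was included at 14.7% and 16.7% on 34 and 30 informative reads. Grip1, a scaffold of glutamate receptors, had an exon at 78.6% and 60.6% on only 28 and 33 informative reads, a difference of 18.0 points that did not pass the test.

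The 5 intermediate exons of the synaptic vesicle and active zone list lay in Erc2, Ppfia1, Ppfibp1 and Unc13b. The 36-nt exon of Erc2, an active zone scaffold, was included at 27.3% and 30.8%. The 30-nt exon of Ppfia1, liprin alpha 1, was included at 74.3% and 67.4%. The 33-nt exons of Ppfibp1 were included at 13.2% and 15.1% and at 55.2% and 45.2%, and the 36-nt exon of Unc13b at 26.5% and 46.0% on 24.5 and 31.5 informative reads. All 5 were multiples of 3.

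Motor and skeleton genes gave further pairs. The 39-nt exons of the kinesin gene Kif21a were included at 76.8% and 75.2% and at 29.3% and 30.6%, and the 39-nt exon of Kif21b at 74.2% and 84.1%. The 33-nt exons of Camsap2 and Camsap1, which encode proteins of microtubule minus ends, were included at 83.6% and 82.6% and at 84.6% and 93.3%. Among membrane skeleton genes, a 36-nt exon of Epb41l3 was included at 84.3% and 79.4%. The dystrophin gene Dmd had a 39-nt exon at 40.7% and 49.1% and a 32-nt exon at 73.9% and 78.9%.

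Among ion channel and transporter genes, the 42-nt exons of the plasma membrane calcium pumps Atp2b3 and Atp2b2 were included at 76.8% and 77.4% and at 50% and 51.7%. The 29-nt exon of Kcnma1, the large-conductance calcium-activated potassium channel, was included at 32.8% and 45.2%, on 205.5 and 210.0 informative reads. In the kinase list, a 48-nt exon of Brsk2 was included at 23.0% and 26.8% and a 36-nt exon of Braf at 58.3% and 49.0%. The 33-nt and 39-nt exons of Dnm1l, the mitochondrial fission GTPase, were included at 85.3% and 85.2% and at 48.8% and 48.9%.

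RNA-binding proteins that act in splicing held short cassette exons themselves. In Rbfox2 a 40-nt exon was included at 84.7% and 84.6% and a 51-nt exon at 87.2% and 83.2%. In Rbfox1 a 43-nt exon was included at 12.7% and 9.09%, on 27.5 and 33 informative reads, and in Mbnl1 a 36-nt exon was included at 77.3% and 77.8%. A 36-nt exon of the SR protein gene Srsf7 was included at 81.9% and 83.4%. In Ptbp2, the neuronal polypyrimidine tract-binding protein, the 34-nt exon was included at 97.4% and 92.0% (p = 4.14e-04, adjusted p = 1.00, two-sided Fisher's exact test). All skipping reads of this Ptbp2 exon, 12 and 34, came from unflagged junctions, since its inclusion was 100% when flagged junctions alone counted. In the myelin list the 4 intermediate exons were those of Ndrg2, both Nfasc exons and a 45-nt exon of Mag, the myelin-associated glycoprotein, at 66.6% and 64.6%.

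The RNA of 34 splicing regulators was all found in the gene tables. Mean levels ran from 0.05 to 221.1 TPM, 26 regulators were over 10 TPM and 2 under 1 TPM. The highest were Srsf11 at 249.1 and 193.0 TPM in replicates 1 and 2, Celf5 at 168.0 and 152.7, Celf4 at 133.5 and 112.9, Rnps1 at 130.7 and 115.1 and Celf2 at 98.7 and 89.5. The 2 under 1 TPM were Esrp1 and Esrp2, which act in epithelial cells. No relation between a regulator and an exon can be tested over 2 libraries.

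The libraries were compared exon by exon with a two-sided Fisher's exact test of including and skipping reads, adjusted by Benjamini-Hochberg over all 111094 measured internal exons, with a threshold of 0.05. This compares 2 libraries and no conditions. An exon with no skipping read in either library could not pass. That held for 82.1% of all internal exons and 70.8% of members. They were kept in the adjustment and in the shares over all exons given here, so few calls were possible. Among the members 1 exon passed, that of Ppp3ca (0.0220% of members), where 0.00180% of all internal exons did. It was higher in R2, a direction in which 9.00e-04% of all internal exons passed, and no member was called higher in R1, where the share was also 9.00e-04%. Among intermediate exons 1 of 368 members (0.272%) was called, against 0.0612% of intermediate exons of any length. No exon passed with a difference of 10 points or more (0%). At an unadjusted p under 0.05 there were 79 members, 39 of them intermediate. The share of all internal exons at that unadjusted threshold was not computed, so these 2 counts cannot be read as particular to short exons.

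For Ppp3ca the difference was 5.37 percentage points (adjusted p = 2.05e-11, two-sided Fisher's exact test). Its TPM share in transcripts was nearly equal in replicates 1 and 2, at 50.1% and 49.6%. Both shares lay far below its inclusion from junction reads, 84.9% in R1 and 90.2% in R2, so the 2 readings differ in level for this exon. The striatal markers that differ between replicates also differed between the mm9 expression columns, with a summed level of 16.3 RPKM in the first and 48.1 RPKM in the second. Oligodendrocyte markers summed to 346.0 and 427.8 RPKM, with all 3 of 3 higher in the second, and none of the 5 markers of cortical neurons was higher there. The part of these marker differences in the Ppp3ca result was not tested, and which replicate each mm9 column holds is not stated. Of the 368 intermediate members, 225 lay within 5 points in the 2 libraries, and the median absolute difference was 3.71 points. Larger differences than that of Ppp3ca, on fewer reads, did not pass, such as the 12.1 points of the Nrxn2 exon of 45 nt on 239.5 and 266.0 informative reads (adjusted p = 1.00, Fisher's exact test).

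**Figure D4:**
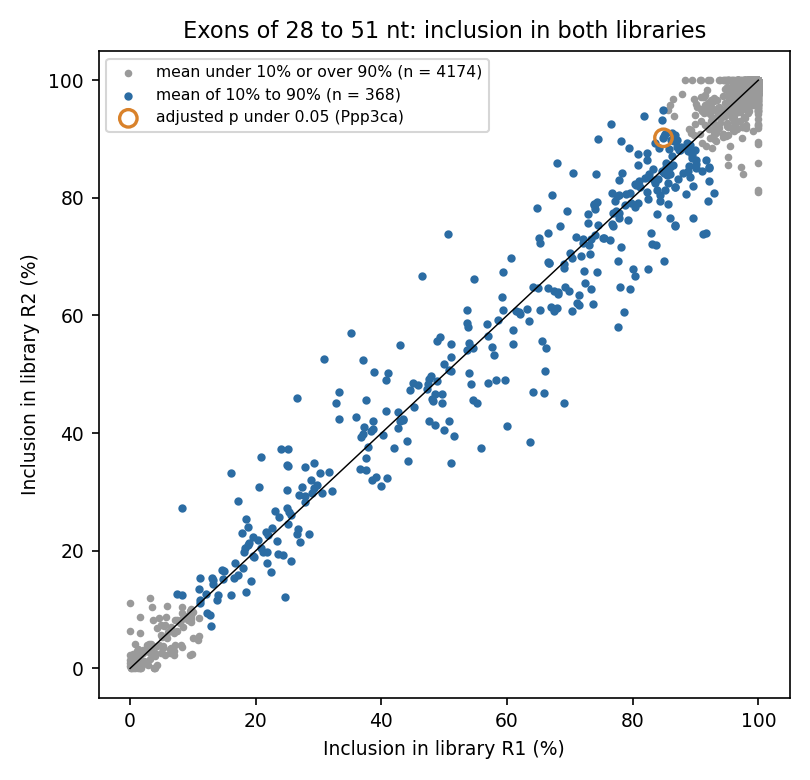
Inclusion of each of the 4542 members in library R1 (x axis, percent) and library R2 (y axis, percent); blue points are the 368 intermediate members, grey points the others, the line marks equal values and the orange ring marks the exon past the threshold, in Ppp3ca. Intermediate members scatter about the line, with a median absolute difference of 3.71 points, and the ringed exon lies close to it.

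Transcript levels gave a second reading of the same exons. For 236 intermediate members the TPM share of transcripts that hold the exon, among transcripts that span it, could be computed. The median share was 49.6% in replicate 1 and 50.3% in replicate 2, where the same exons had a median inclusion of 60.4% from junction reads. The values lay within 20 points of each other for 142 of the 236. Across these exons, which share libraries and are not independent, Pearson's r was 0.631 and 0.633. For Clta the shares were 68.1% and 66.3%, close to the junction reads, while for Klc1 they were 25.5% and 26.5%, for Mff 13.3% and 12.3%, and for Agrn 16.4% and 18.0%, all lower than the junction values. Others were higher, with 85.2% and 83.5% for the Nfasc exon of 45 nt, 89.9% and 85.4% for the Nrxn2 exon of 30 nt and 48.9% and 51.8% for the Add1 exon of 37 nt, where mean inclusion was 55.6%, 64.1% and 28.1%.

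**Figure D5:**
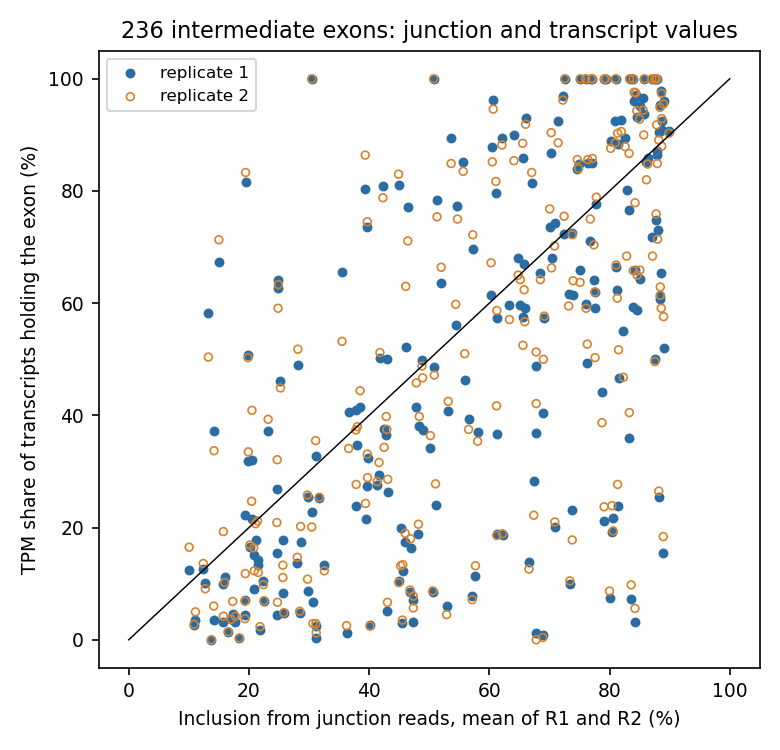
TPM share of the transcripts that hold the exon (y axis, percent) against mean inclusion from junction reads (x axis, percent) for 236 intermediate exons, with replicate 1 in blue and replicate 2 in orange and a line of equal values. Points spread widely about the line, and 142 of the 236 exons have both readings within 20 points.

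Deposited exon RPKM relative to gene RPKM followed the same order of classes. The median ratio was 0.916 and 0.907 in the 2 mm9 columns for members over 90%, 0.276 and 0.279 for intermediate members, and 0.0195 and 0.0338 for members under 10%. For 3347 members (73.7%) the exon RPKM equalled that of another internal exon of the gene in both columns, to every digit deposited. Nrcam is an example, with a ratio of 0.481 in the first column for the exons of 30 and of 36 nt. For single exons the ratio could lie far from inclusion. It was 0.204 and 0.230 for the Ndrg4 exon of 39 nt, where mean inclusion was 87.8%. For Ppp3ca it was 0.0935 and 0.103, where mean inclusion was 87.5%. For Aplp2 it was closer, at 0.906 and 0.877, where mean inclusion was 88.3%. These ratios are therefore given as classes, and no exon is ranked by them.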

How the data were processed

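Per the labels, 2 libraries of polyadenylated RNA from adult mouse cortex were sequenced. For each splice junction on mm9, the authors deposited read counts R1 and R2, a flag A and an irreproducibility score. The flag's meaning is not stated. Exon and gene RPKM on mm9, deposited as RPKM1 and RPKM2, use Ensembl 65, and every gene stands in its table more than once with the same RPKM. The deposited gene and transcript tables on mm10 give TPM and expected counts per replicate with GENCODE M4, which totalled 91875460 and 92939474 expected counts. The aligner, the junction caller and the map from mm9 columns to replicates are not given in the sources used here. A read of 101 nt can cross a whole short exon and count at both of its ends.

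Inclusion was computed from flagged junctions at both ends and any junction between the outer sites, with at least 20 informative reads in each column. The mean of the ends was rounded for Fisher's exact tests and Wilson intervals (95%), which cover counting error only. Exons were matched to GENCODE M21 (mm10) by their transcripts, since no mm9 genome was used here. Transcript shares needed transcripts of unchanged identifier and length between releases with at least 90% of the gene's TPM, and at least 1 TPM. That requirement was relaxed from unchanged versions after few exons passed. The Fisher test and a test with inflated variance were tested on simulated data.

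Named exons are the 15 intermediate members and the 5 under 10% with most reads, the 10 most different among called members, every measured member in the textbook genes, the intermediate member with most reads of each list, the 5 with most reads whose length is not a multiple of 3, and those of the 3 genes with most intermediate members. Some exons and genes that this rule names are not reported here. Members, lists and this rule were chosen with earlier results of these data known. Alternatives were other read minimums, ends, skipping junctions, class limits and single columns. Symbols were found for 2954 of 2974 genes. Software was scipy 1.17.1, numpy 2.4.6, pandas 2.3.3 and matplotlib 3.10.9 under Python 3.11.15.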

Additional observations from a re-analysis of the deposited data

How the results depend on the processing

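The number of measured exons stayed between 3317 and 5004 under every alternative run. The share of intermediate members, 8.10%, was 8.29% and 7.83% with minimums of 10 and 50 informative reads, 8.37% with the lower end, 7.91% with the higher end, 6.83% with skipping from flagged junctions only, 11% with skipping from every spanning junction, 7.72% without overlapped exons, 7.96% without irreproducible junctions, and 11.5% or 5.28% with limits of 5% to 95% or 20% to 80%. With each library left out in turn it was 8.21% to 8.30%. The share of multiples of 3 among intermediate members, 67.7%, was 63.9% and 70.7% at 10 and 50 reads, 71.8% with flagged skipping, 63.2% with every spanning junction, 71.9% without overlapped exons, and 65.8% to 67.6% with a library left out. Median inclusion was 99.4% with every spanning junction and 100% otherwise. The 1 called exon became 0 when a difference of 10 points was also required, and was 1 under the other alternatives, the inflated variance included. The causes of these moves were not tested. Of 68 named exons, 6 moved by over 10 points with the lower end, 4 with the higher end, 1 with flagged skipping and 6 with every spanning junction. Depth limits the exons near 20 reads, such as that of Grip1. No paired analysis was possible because the libraries form 1 group.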

Other observations

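More than 1 intermediate short exon was found in 27 of the 341 genes with any, and 3 or more in none. In some of these genes, such as Add1, Uap1 and Cldnd1, the exons overlap, so fewer genes hold separate ones. Exons that do not overlap could differ within a gene. In Rbms3, an RNA-binding protein gene, exons of 48 and 51 nt had mean inclusion of 66.1% and 19.4%, and in Cdc42bpa, a kinase gene, exons of 48 and 39 nt had 70.9% and 41.3%. In others the exons were alike, as in Afdn, which encodes the junction protein afadin, at 80.2% and 75.1% (45 and 36 nt), in Slmap at 42.9% and 39.3% (both 51 nt) and in Epn2, an endocytic adaptor gene, at 31.7% and 31.2% (36 and 35 nt). These genes were picked after their values were seen, and junction reads do not show whether both exons of a gene lie in the same RNA molecule.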
